A study of Mus musculus with 30 samples.

Results

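Expression of 10 genes of the integrated stress response was followed in the extensor digitorum longus (EDL), a fast-twitch hind-limb muscle, of mice with experimental autoimmune encephalomyelitis (EAE). The genes were ATF4, DDIT3, TRIB3, ASNS, CHAC1, SESN2, PSAT1, PHGDH, FGF21 and GDF15. They were chosen by name, and all 10 were found among the 21073 genes measured by RNA-Seq of polyadenylated RNA. All 30 mice were wild type females of the SJL/J strain, whose age was not given in the sources used here. EAE-induced mice were immunized with [Ser140]-PLP139-151, a myelin peptide, in complete Freund's adjuvant (CFA), and no pertussis toxin was given. OVA-immunized mice received ovalbumin in CFA and served as controls for the adjuvant, and unimmunized mice (Ctrl) received neither antigen nor adjuvant. Muscles were taken from 5 mice per group on day 14, the peak of disease, and from 5 other mice per group on day 40, in the chronic remission phase. RNA came from whole muscle, so that fewer cells of a type and less RNA per cell cannot be told apart.

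The integrated stress response begins when a kinase that senses amino acid shortage, unfolded proteins, haem deficiency or double-stranded RNA phosphorylates the translation factor eIF2α. Bulk translation then slows while the transcription factor ATF4 is translated more, and ATF4 switches on genes for amino acid uptake and synthesis, tRNA charging, redox defence and, when stress persists, cell death. In skeletal muscle the pathway is known for the secretion of FGF21 and GDF15 under mitochondrial stress. Because ATF4 is controlled largely at translation, the level of its mRNA is not a measure of its protein.

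ATF4 binds with C/EBP partners to a composite element with the consensus TGATGNAA, where N is any base. It was searched on both strands in the 250 bases before each transcription start, and 3 of the 10 genes (12 windows) held a match. Of 32851 promoters of the same length 3.452% held a match, counted per promoter and not per gene. The 10 genes were chosen as genes of this pathway, so these shares are no test of enrichment. The sequences of CHAC1 (chr2:119350992-119351241, + strand), ASNS (chr6:7693210-7693459, - strand) and FGF21 (chr7:45615491-45615740, - strand) are shown, 5′ to 3′ in the direction of transcription, because these promoters carried the element. They come from RefSeq on GRCm38.p6, and capitals mark the match.

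CHAC1: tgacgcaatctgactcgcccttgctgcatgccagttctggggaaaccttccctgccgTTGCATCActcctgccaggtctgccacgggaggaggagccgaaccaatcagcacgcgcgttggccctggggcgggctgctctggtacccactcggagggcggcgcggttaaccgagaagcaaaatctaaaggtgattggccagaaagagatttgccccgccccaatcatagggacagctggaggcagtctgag

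ASNS: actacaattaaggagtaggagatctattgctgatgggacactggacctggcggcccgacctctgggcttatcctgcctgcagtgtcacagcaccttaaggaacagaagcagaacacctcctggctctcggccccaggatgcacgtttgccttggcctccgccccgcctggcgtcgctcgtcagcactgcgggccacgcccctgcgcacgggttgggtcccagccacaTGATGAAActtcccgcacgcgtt

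FGF21: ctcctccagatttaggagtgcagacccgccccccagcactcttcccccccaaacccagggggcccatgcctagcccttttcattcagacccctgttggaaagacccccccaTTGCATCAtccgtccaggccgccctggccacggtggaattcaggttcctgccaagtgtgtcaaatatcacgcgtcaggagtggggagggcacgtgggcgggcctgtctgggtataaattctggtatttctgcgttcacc

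In ASNS the match read in the direction of transcription as TGATGAAA and began 23 bases before the start. In CHAC1 and FGF21 it lay on the opposite strand and read as TTGCATCA, beginning 193 and 139 bases before the start. The windows of ATF4, DDIT3, TRIB3, SESN2, PSAT1, PHGDH and GDF15 did not hold these letters, and none of the 10 genes held the ER stress element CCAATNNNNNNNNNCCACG (0.1126% of promoters) or the cAMP response element TGACGTCA (1.546%). On day 14, EAE-induced mice overlapped with both control groups in all 3 genes with a match. Of all genes tested, 32.2% did not overlap against unimmunized and 26.2% against OVA-immunized mice. FGF21, at 14 reads or fewer per mouse, was called higher by limma without the filter described below. Its log2 difference was 1.22 (adjusted p = 0.0185) from unimmunized and 1.35 (adjusted p = 0.0149) from OVA-immunized mice. ASNS and CHAC1 were not called in that fit.

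Levels are given as RPKM, reads per kilobase of transcript scaled to the mapped reads, which allows genes to be compared per length. Fold changes are differences on the log2(RPKM + 0.1) scale with their standard error (SE). Genes with a mean above 3 RPKM in 1 or more of the compared groups were tested, and a gene was called if limma's test gave a Benjamini-Hochberg adjusted p under 0.05 and the change exceeded 1.5-fold. By this filter ATF4, DDIT3 and CHAC1 were tested in every comparison, PSAT1 only where EAE-induced mice on day 14 took part, and the other 6 genes in none. In unimmunized mice on day 14 the order of mean levels was ATF4, DDIT3, CHAC1, ASNS, SESN2, PSAT1, TRIB3, PHGDH, GDF15 and FGF21. Within it, DDIT3 and CHAC1 overlapped between mice, as did neighbours among the 5 genes from ASNS to PHGDH, and GDF15 and FGF21.

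Muscle identity was as labelled, with fast-fibre markers at 60910 to 110700 summed RPKM over all mice and slow-fibre markers at 750.2 to 2062. On day 14 the fast-fibre sum was 60910 to 73260 RPKM in EAE-induced mice, below the 81970 to 110700 of unimmunized and overlapping with the 72390 to 93960 of OVA-immunized mice, with 1 of 9 markers called lower in each comparison. Markers of other cells moved with the groups on that day as well. Summed over 8 neutrophil markers, 4.546 to 10.2 RPKM were measured in unimmunized, 64.57 to 228.1 in OVA-immunized and 201.4 to 392.6 in EAE-induced mice. Of the 4 neutrophil markers above the filter, all 4 were called higher against unimmunized mice, but only 1 was higher against OVA-immunized mice (median log2 difference -0.91), so the higher sum does not hold for the other markers. Fibroblast markers were lower in EAE-induced mice, at 299.9 to 493.8 RPKM over 5 genes against 860.1 to 1984 in unimmunized and 708.2 to 1071 in OVA-immunized mice. The sum of 7 macrophage markers was 65 to 118.4 RPKM in EAE-induced mice, below the 125.6 to 202.9 of unimmunized mice. It overlapped with the 106.3 to 177.5 of OVA-immunized mice, and 4 of 6 tested markers were called lower in each comparison. Erythroid markers were at 26.45 to 188.5 RPKM in EAE-induced, 189.1 to 683.8 in unimmunized and 474.6 to 1585 in OVA-immunized mice. Lymphocyte markers were near 0 in every mouse, at most 4.452 RPKM over 6 genes. Endothelial, Schwann cell and adipocyte markers overlapped between the groups of day 14, at 50.73 to 115.6, 69.86 to 195.1 and 287.9 to 692.3 RPKM. The part of these cells and fibres in the results below was not tested. Libraries of the 2 days also differed in APOA1, a lipoprotein gene of liver and intestine, which lay at 3.55 to 8.64 RPKM in all 15 mice of day 40 and at no more than 0.0557 in those of day 14. The hepatocyte genes ALB and TTR stayed at or below 0.123 RPKM on both days.

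**Figure D1:**
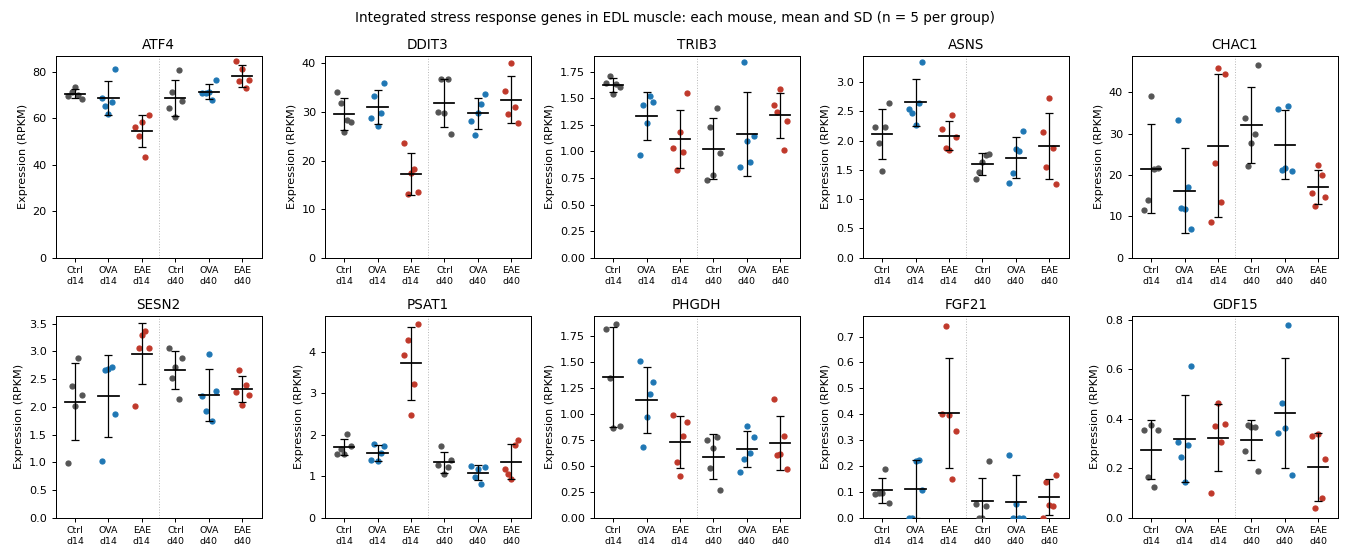
Expression (RPKM, linear axes from 0) of the 10 genes in each of the 30 mice. Points are mice, horizontal lines are group means and bars are SDs (n = 5). On day 14 every EAE-induced mouse lay below all control mice for ATF4 and DDIT3 and above them for PSAT1. Groups of that day did not overlap in 32.2% of all genes tested against unimmunized and in 26.2% against OVA-immunized mice. On day 40 no gene separated EAE-induced mice from either control group, where 5.22% and 5.87% of all genes tested did so.

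The first question was whether muscle at the peak of EAE differed from unimmunized muscle in these genes. On day 14 DDIT3 fell and PSAT1 rose in EAE-induced mice, and both did so also against OVA-immunized mice. Of the 4 genes tested against unimmunized mice 1 was called higher and 1 lower, where 14.6% of all 8771 genes tested were called higher and 11.8% lower. Against OVA-immunized mice the same 2 genes were called, with 11% of all genes called higher and 9.28% lower. PSAT1 passed the filter only through the group in which it was high, so its count carries no weight of its own.

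ATF4 (chr15:80255184-80257545) encodes the central transcription factor of the pathway and was the most abundant of the 10. In unimmunized mice on day 14 it was measured at 69.8, 71.3, 73.5, 70.1 and 68.4 RPKM, and in OVA-immunized mice at 68.7, 65.2, 61.9, 66.9 and 81.3 RPKM. The EAE-induced mice gave 56.3, 52.3, 58.3, 43.5 and 61.3 RPKM, so that the highest of them lay just under the lowest OVA-immunized mouse. Non-overlap of this kind was seen for 32.2% of all genes tested against unimmunized and for 26.2% against OVA-immunized mice. The log2 difference was -0.39 (SE 0.103, adjusted p = 0.00638) from unimmunized and -0.34 (SE 0.103, adjusted p = 0.0155) from OVA-immunized mice, which did not reach 1.5-fold, so that ATF4 was not called. At any fold change, 19% of all genes were lower at an adjusted p under 0.05 against unimmunized and 15.3% against OVA-immunized mice. OVA-immunized and unimmunized mice differed by -0.04 (SE 0.103, adjusted p = 0.905).

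DDIT3 (chr10:127290793-127296291) encodes CHOP, the factor that ATF4 induces under lasting stress and that promotes cell death. Its level was 34.1, 31.9, 25.8, 28.4 and 28.0 RPKM in unimmunized and 28.8, 33.4, 27.2, 29.9 and 36.0 RPKM in OVA-immunized mice on day 14. EAE-induced mice were at 23.7, 13.2, 17.4, 18.2 and 13.4 RPKM, all 5 below every control mouse. As given for ATF4, 32.2% and 26.2% of all genes tested did not overlap in these comparisons. The mean was 17.2 ± 4.30 RPKM (SD, n = 5) against 29.6 ± 3.32 in the unimmunized group and 31.0 ± 3.57 after OVA. The fold change on the log2 scale was -0.81 (SE 0.147, adjusted p = 0.000445) against unimmunized and -0.88 (SE 0.147, adjusted p = 0.000278) against OVA-immunized mice. In an exact permutation test over mice (two-sided) both differences gave p = 0.00794, the smallest that 5 against 5 mice allow. The span of DDIT3 overlaps those of MBD6 by 77 and of MARS1 by 71 bases, and reads there could belong to either gene. Within each mouse, the ratio of DDIT3 to ATF4 was 0.219 to 0.421 in EAE-induced mice, 0.352 to 0.489 in unimmunized and 0.419 to 0.511 in OVA-immunized mice, so the ratios of EAE-induced mice reached into those of both controls.

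PSAT1 (chr19:15905123-15925059) encodes the aminotransferase that carries out the second step of serine synthesis from glucose. It was measured on day 14 at 1.54, 1.66, 1.54, 2.01 and 1.74 RPKM in unimmunized and at 1.38, 1.79, 1.38, 1.55 and 1.74 RPKM after OVA. EAE-induced mice were at 3.94, 4.30, 2.47, 3.24 and 4.67 RPKM, each above all 10 control mice. Such non-overlap held for 32.2% of all genes tested against unimmunized and for 26.2% against OVA-immunized mice. PSAT1 rose by 1.06 on the log2 scale (SE 0.169, adjusted p = 0.000155) against unimmunized and 1.17 (SE 0.169, adjusted p = 7.74e-05) against OVA-immunized mice. It passed the filter only through EAE-induced mice, in which it was high. In the limma fit without the filter its adjusted p was 0.000227 against unimmunized and 0.000127 against OVA-immunized mice. That fit called 9.17% and 6.79% of all genes higher. The exact permutation p was 0.00794 in both cases.

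The enzymes next to PSAT1 in the serine pathway did not rise with it. PHGDH (chr3:98313171-98339969), which catalyses the first and committed step, ranged from 0.403 to 0.990 RPKM in EAE-induced mice (median 0.786), from 0.869 to 1.86 in unimmunized (median 1.35) and from 0.682 to 1.51 in OVA-immunized mice (median 1.19). It stayed under 3 RPKM in every group. In a fit without the filter, in which 9.17% of 17474 genes were called higher and 11.3% lower against unimmunized mice, PHGDH was called lower (log2 -0.81, SE 0.277, adjusted p = 0.0369). Against OVA-immunized mice its log2 difference was -0.59 (SE 0.277, adjusted p = 0.144), and the groups overlapped in both comparisons. PSPH, the phosphatase of the last step, fell from 8.05 ± 1.01 RPKM (SD, n = 5) in unimmunized to 4.68 ± 0.868 in EAE-induced mice (log2 -0.78, SE 0.150, adjusted p = 0.000693) and also fell against OVA-immunized mice (log2 -0.60, adjusted p = 0.00547). The ratio of PSAT1 to PHGDH was 3.98 to 8.04 in EAE-induced mice on day 14, against 0.845 to 1.98 in unimmunized and 0.917 to 2.62 in OVA-immunized mice. The ratio of PSAT1 to PSPH was 0.450 to 1.28 against 0.170 to 0.254 and 0.153 to 0.287. These ratios were chosen after the values were seen and were not tested.

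**Figure D2:**
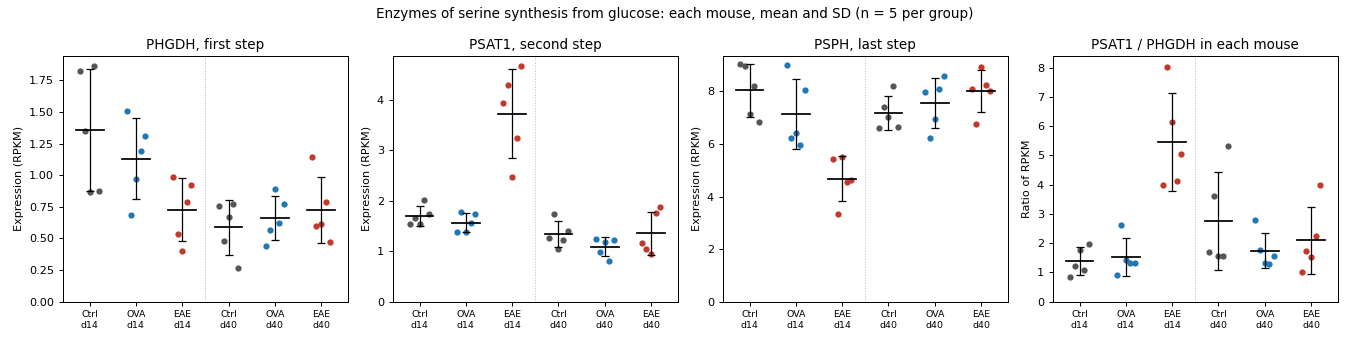
RPKM of the 3 enzymes of serine synthesis and the PSAT1 to PHGDH ratio in each mouse (points), with group mean and SD (n = 5, linear axes from 0). On day 14 PSAT1 in EAE-induced mice (2.47 to 4.67) lay above all controls while PSPH lay below them. Groups of day 14 did not overlap in 32.2% of all genes tested against unimmunized and in 26.2% against OVA-immunized mice. The ratio was at least 3.98 in EAE-induced mice and at most 2.62 in the controls of that day.

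ASNS (chr6:7675165-7693209), asparagine synthetase and a classical ATF4 target, was not higher at the peak of disease. It ranged from 1.84 to 2.44 RPKM in EAE-induced mice, from 1.48 to 2.65 in unimmunized and from 2.27 to 3.34 in OVA-immunized mice. Without the filter the log2 difference was 0.00 (SE 0.154) from unimmunized and -0.33 (SE 0.154, adjusted p = 0.142) from OVA-immunized mice. TRIB3 (chr2:152337425-152344060), a pseudokinase that feeds back on ATF4, lay at 0.829 to 1.55 RPKM in EAE-induced, 1.54 to 1.71 in unimmunized and 0.971 to 1.52 in OVA-immunized mice. The 5 unimmunized mice were close together (SD 0.0621 RPKM), and all OVA-immunized mice lay below them, as was the case in either direction for 2.69% of all genes tested in that comparison. The difference of EAE-induced from unimmunized mice was -0.53 on the log2 scale (SE 0.161, adjusted p = 0.0208, without the filter), under 1.5-fold, and that from OVA-immunized mice was -0.25 (adjusted p = 0.304). Neither PHGDH, ASNS nor TRIB3 therefore shared the direction of PSAT1.

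CHAC1 (chr2:119351242-119354326), which degrades glutathione, varied widely between mice of a group. On day 14 unimmunized mice were at 11.5, 14.0, 39.0, 21.3 and 21.7 RPKM, OVA-immunized mice at 33.3, 12.0, 11.8, 17.1 and 6.83, and EAE-induced mice at 8.71, 22.9, 45.8, 13.5 and 44.4. The groups overlapped widely, and the log2 difference of EAE-induced mice was 0.18 from unimmunized (SE 0.477, adjusted p = 0.771) and 0.66 from OVA-immunized mice (SE 0.477, adjusted p = 0.286). With an SE of this size, a change of 1.5-fold could not be told from the spread. SESN2 (chr4:132492804-132510456), a stress-induced inhibitor of mTORC1 signalling, was at 2.01, 3.07, 3.29, 3.37 and 3.06 RPKM in EAE-induced mice. Unimmunized mice were at 0.979, 2.37, 2.02, 2.87 and 2.21 RPKM and OVA-immunized mice at 1.03, 2.67, 2.68, 2.71 and 1.86, so that 4 of the 5 EAE-induced mice lay above all controls and 1 among them. The log2 difference without the filter was 0.54 (SE 0.288, adjusted p = 0.174) and 0.47 (SE 0.288, adjusted p = 0.264). The mouse numbered 1 was the lowest in each of the 3 groups, and these SEs come from a fit with no term for that number.

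The secreted factors FGF21 and GDF15 lay close to the limit of detection. FGF21 (chr7:45613890-45615490), a hormone of fasting and mitochondrial stress, was read 7, 14, 12, 3 and 7 times in EAE-induced mice on day 14, which is 0.403, 0.740, 0.398, 0.150 and 0.336 RPKM. Unimmunized mice had 2, 2, 2, 4 and 1 reads and OVA-immunized mice 0, 0, 4, 4 and 2, so 4 of 5 EAE-induced mice lay above every control. The limit that a count of 0 allows, 3 reads, corresponded to 0.0996 to 0.173 RPKM. Without the filter FGF21 was called higher, by 1.22 on the log2 scale (SE 0.364, adjusted p = 0.0185) against unimmunized and by 1.35 (SE 0.364, adjusted p = 0.0149) against OVA-immunized mice, where 6.79% of all genes were called higher. The exact permutation p was 0.0159 and 0.0238, and with 0.1 RPKM added the fold change understates the difference at this level. GDF15 (chr8:70629393-70632470), a cytokine of stressed cells, was read 2 to 16 times in EAE-induced, 3 to 9 times in unimmunized and 3 to 13 times in OVA-immunized mice, and the groups overlapped. The log2 differences were 0.16 (SE 0.322) and 0.02 (SE 0.322), and none was detectable at this depth.

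**Figure D3:**
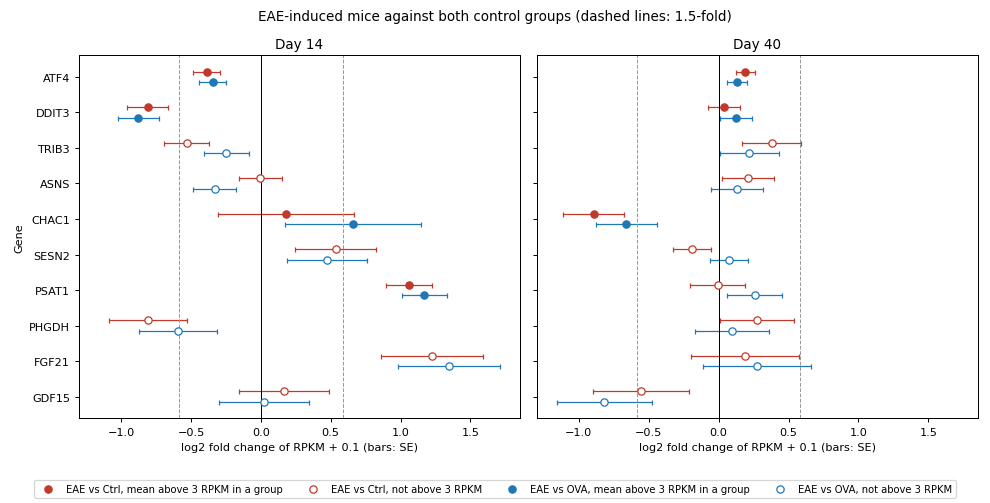
Log2 fold change of RPKM + 0.1 with SE bars for EAE-induced mice against unimmunized (red) and OVA-immunized mice (blue), from the fit to all genes without a filter. Filled points mark genes with a group mean above 3 RPKM and dashed lines mark 1.5-fold. On day 14 DDIT3 lies near -0.8 and PSAT1 above 1, and on day 40 both lie within 0.26 of 0.

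The adjuvant and an irrelevant antigen alone were addressed by comparing OVA-immunized with unimmunized mice. By limma's test none of the 3 genes tested was called on day 14, with 0 at an unadjusted p under 0.05, where 0.142% of all genes were called. On day 40 again 0 of 3 were called and 0 had an unadjusted p under 0.05, with 0% of all genes called. The largest of these differences was that of CHAC1 on day 14, at -0.48 on the log2 scale (SE 0.476, adjusted p = 0.764).

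In the chronic remission phase none of the 10 genes separated EAE-induced mice from unimmunized mice, where 5.22% of all genes tested did so, or from OVA-immunized mice (5.87%). On day 40 DDIT3 was measured at 34.4, 29.5, 40.2, 31.0 and 27.8 RPKM in EAE-induced mice, against 25.6 to 36.9 in unimmunized and 25.4 to 33.7 in OVA-immunized mice. PSAT1 was at 1.17, 1.04, 0.937, 1.76 and 1.87 RPKM, against 1.04 to 1.73 and 0.806 to 1.24. The log2 difference of DDIT3 from unimmunized mice was 0.04 (SE 0.115, adjusted p = 0.853) and that from OVA-immunized mice 0.13 (SE 0.115, adjusted p = 0.576). ATF4 in EAE-induced mice was at 84.7, 75.8, 81.2, 73.2 and 76.3 RPKM, with log2 differences of 0.19 (SE 0.0722, adjusted p = 0.115) and 0.13 (SE 0.0722, adjusted p = 0.354). FGF21 was read at most 3 times in any EAE-induced mouse on day 40, and at most 5 times in any control mouse of that day.

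CHAC1 was the only one of the 3 genes tested that was called on day 40, where 0.391% of all genes were called lower in EAE-induced than in unimmunized mice. It was at 15.6, 12.5, 22.4, 20.0 and 14.7 RPKM in EAE-induced mice and at 33.7, 22.3, 27.7, 29.8 and 46.7 RPKM in unimmunized mice, and only 1 mouse of each group lay within the other's range. The log2 fold change was -0.90 (SE 0.212, adjusted p = 0.0421), and it was not called in 8 of the 10 fits that left out 1 mouse. OVA-immunized mice of that day were at 36.0, 21.1, 21.8, 36.7 and 21.0 RPKM, and against them the difference was -0.66 (SE 0.212, adjusted p = 0.142). In that comparison 0 of 3 genes were called by limma, 1 had an unadjusted p under 0.05, and 0.209% of all genes were called. Its adjusted p was 0.0567 with median-of-ratios scaling, 0.0658 with quantile normalization and 0.0784 with only the 10 mice compared.

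An interaction term over all 30 mice tested whether the effect of EAE changed from day 14 to day 40. The difference of EAE-induced from unimmunized mice changed by 0.85 for DDIT3 (SE 0.191, adjusted p = 0.00088) and by -1.07 for PSAT1 (SE 0.258, adjusted p = 0.00153), where 32.7% of all genes were called. Against OVA-immunized mice the changes were 1.00 for DDIT3 (SE 0.191, adjusted p = 0.000222) and -0.91 for PSAT1 (SE 0.258, adjusted p = 0.00767), with 21.8% of all genes called. PSAT1 passed the filter only through EAE-induced mice of day 14, in which it was high. In the limma fit without the filter its adjusted p was 0.00249 against unimmunized and 0.0123 against OVA-immunized mice. ATF4 changed by 0.58 (SE 0.121, adjusted p = 0.000435) and 0.47 (SE 0.121, adjusted p = 0.00333), under 1.5-fold in both. This depended on the scaling: with median-of-ratios scaling the changes were 0.70 and 0.59, and ATF4 was called in both. Quantile normalization gave 0.62 against unimmunized mice, also called, and ATF4 was called there in 9 of the 20 fits that left out 1 mouse.

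Within EAE-induced mice, day 40 differed from day 14 by 0.94 for DDIT3 (SE 0.135, adjusted p = 2.22e-06) and by -1.41 for PSAT1 (SE 0.182, adjusted p = 4.22e-07), both called, where 21.1% of all genes were called. PSAT1 again passed the filter only through day 14, and without the filter limma gave an adjusted p of 7.16e-07 (SE 0.179). The difference of ATF4 was 0.53 (SE 0.0854, adjusted p = 1.01e-05), under 1.5-fold, and became 0.69 with quantile normalization, when ATF4 was called. In OVA-immunized mice 0 of 3 genes were called between the days by limma (1 at an unadjusted p under 0.05, 3.97% of all genes called), and in unimmunized mice 0 of 3 (0 at an unadjusted p under 0.05, 9.37% of all genes called). Low genes did differ between the days in the fit without the filter. In EAE-induced mice FGF21 was lower on day 40 than on day 14 (log2 -1.48, SE 0.394, adjusted p = 0.00483), at 14 reads or fewer per mouse. The fit with the filter called 21.1% of all genes in that comparison. TRIB3 was lower on day 40 than on day 14 in unimmunized mice (log2 -0.65, SE 0.186, adjusted p = 0.01998), as was PHGDH (log2 -1.08, SE 0.277, adjusted p = 0.0111), with 2.6% of all genes called lower. ASNS was lower on day 40 in OVA-immunized mice (log2 -0.62, SE 0.170, adjusted p = 0.0231), with 1% of all genes called lower. Since the mice of each day were different animals and their libraries differed in APOA1 as given above, day and library set cannot be told apart in these comparisons.

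Other genes of the pathway were read from lists of 104 genes, of which 82 passed the filter in each comparison of day 14. Against unimmunized mice 20 were called higher and 5 lower, and against OVA-immunized mice 19 higher and 3 lower. Some of these genes passed the filter only through the group in which they were high. Against unimmunized mice they include SLC7A5, SLC6A9 and BBC3 among the higher and EIF2AK2 among the lower genes. Their calls carry no weight as a count. Over all genes tested, 14.6% were called higher and 11.8% lower against unimmunized, and 11% and 9.28% against OVA-immunized mice. On day 40, 0 of 80 were called against either control by limma, with 15 and 16 at an unadjusted p under 0.05.

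Among the kinases that phosphorylate eIF2α, EIF2AK2, the sensor of double-stranded RNA, fell from 3.79 ± 1.10 to 2.30 ± 0.221 RPKM (SD, n = 5) between unimmunized and EAE-induced mice on day 14 (log2 -0.66, SE 0.170, adjusted p = 0.00509). It passed the filter only through unimmunized mice, and in OVA-immunized mice it was at 2.78 ± 0.462 RPKM and was not tested against them. EIF2AK1, the haem-regulated kinase, was at 20.3 ± 0.973 and 23.6 ± 2.07 RPKM (log2 0.21, adjusted p = 0.101). EIF2AK3, which senses unfolded proteins in the endoplasmic reticulum, was at 2.23 ± 0.410 and 2.06 ± 0.346 RPKM, and EIF2AK4, which senses uncharged tRNA, at 1.28 ± 0.224 and 1.43 ± 0.162, both under the filter. Of 8 genes of eIF2α, its exchange factor eIF2B and its phosphatase subunits, 2 were called higher and none lower against unimmunized mice. Of all genes tested there, 14.6% were called higher and 11.8% lower. EIF2S1, which encodes eIF2α itself, rose by 0.77 (SE 0.154, adjusted p = 0.000942), and against OVA-immunized mice it differed by 0.48 (adjusted p = 0.022), under 1.5-fold and not called. The eIF2B subunit EIF2B3 rose by 0.83 (SE 0.131, adjusted p = 0.00014) and, against OVA-immunized mice, by 0.78 (adjusted p = 0.00029). EIF2B2 and EIF2B5 differed by 0.50 and 0.45, EIF2B4 by 0.21 and EIF2B1 by -0.05. PPP1R15A, the stress-induced phosphatase subunit GADD34, differed by 0.50 (adjusted p = 0.0177) from unimmunized mice, under 1.5-fold, and rose by 0.66 against OVA-immunized mice (adjusted p = 0.0041). The constitutive subunit PPP1R15B differed by 0.37 (adjusted p = 0.027) and 0.24 (adjusted p = 0.150).

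Partner transcription factors of ATF4 moved in both directions, with 3 of 9 tested called higher and 2 lower against unimmunized mice (median log2 difference 0.00, against 0.11 over all genes tested). The shares over all genes were 14.6% higher and 11.8% lower against unimmunized, and 11% and 9.28% against OVA-immunized mice. ATF3, a stress-induced factor, rose from 6.48 ± 2.78 to 40.6 ± 29.4 RPKM (log2 2.46, SE 0.428, adjusted p = 0.000327), NFE2L2, the antioxidant regulator NRF2, by 1.12 and CEBPB by 0.95. NUPR1, a stress-induced cofactor, fell from 18.0 ± 3.00 to 5.16 ± 1.85 RPKM (log2 -1.85, SE 0.207, adjusted p = 7.5e-06), and ATF5 fell by 0.62 on the log2 scale (adjusted p = 0.000733). Against OVA-immunized mice the 3 factors that rose were again called higher and NUPR1 lower (log2 -1.49), while ATF5 was not called (log2 -0.50, adjusted p = 0.00409, under 1.5-fold).

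Of 11 amino acid transporters 6 passed the filter, of which 3 were called higher against unimmunized mice, as were 14.6% of all genes tested. Of these 3, SLC7A5 and SLC6A9 passed only through EAE-induced mice, so their calls carry no weight as a count. The 5 transporters under the filter had lower means in EAE-induced than in unimmunized mice, such as SLC1A4 at 0.395 ± 0.0867 against 0.705 ± 0.212 RPKM and SLC7A11 at 0.0677 ± 0.0258 against 0.115 ± 0.0328, and were not tested. SLC7A5, the light chain of the large neutral amino acid transporter, rose from 2.00 ± 0.275 to 11.6 ± 5.39 RPKM (log2 2.35, SE 0.271, adjusted p = 1.01e-05). The glycine transporter SLC6A9 rose by 1.82 and the neutral amino acid transporter SLC38A2 by 1.80. Of 20 aminoacyl-tRNA synthetases, all tested, 4 were called higher in the comparison with unimmunized mice and 5 in that with OVA, and none lower, where 14.6% and 11% of all genes tested were called higher. Their medians were 0.40 and 0.43, against 0.11 over all genes in both comparisons. VARS rose from 12.7 ± 1.71 to 30.6 ± 4.97 RPKM (log2 1.26, SE 0.124, adjusted p = 3.06e-06), DARS by 1.24 and KARS by 0.91.

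Of 9 other enzymes of serine, one-carbon and proline metabolism 5 were tested, PSPH was called lower and none higher. Of 14 further ATF4 targets 9 were tested against unimmunized mice, with 5 called higher and 1 lower. For the counts of this paragraph, the shares over all genes were 14.6% higher and 11.8% lower against unimmunized mice. Against OVA-immunized mice they were 11% and 9.28%. DDIT4, an inhibitor of mTORC1, rose by 1.67 on the log2 scale (SE 0.371, adjusted p = 0.00191), the cell death gene BBC3, which passed the filter only through EAE-induced mice, by 0.88 and EIF4EBP1, a repressor of cap-dependent translation, by 0.81. The angiogenic factor VEGFA fell by 1.00 (SE 0.268, adjusted p = 0.0067). In the ATF6 and XBP1 branch of the unfolded protein response, 3 of 14 tested genes were called higher against unimmunized mice, XBP1 by 0.93, ATF6 by 0.66 and the chaperone DNAJB9 by 0.63, and only XBP1 against OVA-immunized mice (0.81). Of 8 mitochondrial stress sensors and chaperones none was called in either comparison. Of 4 receptor genes for FGF21 and GDF15 only 1 passed the filter and was not called, and KLB, the co-receptor of FGF21, was at 0.0573 ± 0.0457 RPKM in EAE-induced mice.

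**Figure D4:**
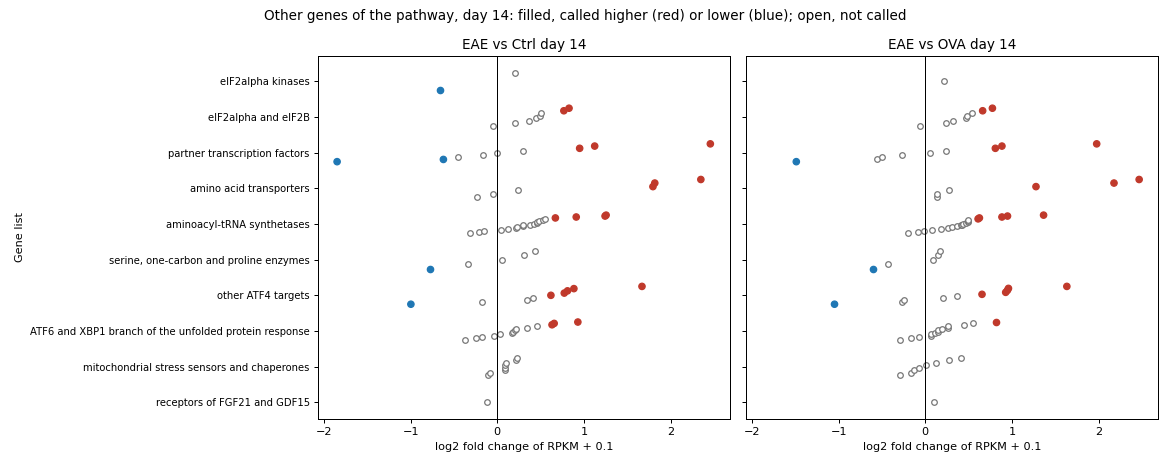
Log2 fold change of RPKM + 0.1 on day 14 for each tested gene of 10 pathway lists, against unimmunized (left) and OVA-immunized mice (right). Filled points were called higher (red) or lower (blue) and open points were not called; transporters reach 2.35, while mitochondrial stress sensors hold no filled point.

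The genes whose profile over the 30 mice lay nearest to those called were found by the root mean square of the difference between centred log2 values, over 9049 genes. For DDIT3 these were DHRS11 (0.143) and PKM (0.158), where the median over all genes was 0.473. For PSAT1 they were STK40 (0.271) and TUBB4B (0.277), with a median of 0.623, and for CHAC1 PLCD3 (0.546) and OTUB2 (0.550), with a median of 0.750. A flat profile would lie at 0.382 from DDIT3, 0.592 from PSAT1 and 0.711 from CHAC1. The genes nearest to CHAC1 were thus not close to it.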

How the data were processed

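Total RNA of EDL muscle (5 mice per group and day) was made into strand-specific poly(A) libraries and sequenced in paired ends. The authors aligned reads with Subread to mm10, counted them with featureCounts and deposited 1 table of RPKM, which by its values is on a log2 scale. Read as log2(RPKM + 1), 100% of 8201 values of 540 low genes were whole reads (within 3%), against 30.57% read as plain RPKM, so values were converted back to RPKM and 0.0001 was taken as no read. Depth recovered this way was 18180000 to 31670000 reads per mouse (median 21680000), the deepest being EAE day 14 replicate 3. The limit of 3 reads given for FGF21 covers counting error only, while SEs and SDs were taken over mice.

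Tests used limma 3.58.1 (R 4.3.3) on log2(RPKM + 0.1) with a trend in eBayes, on genes above 3 RPKM in at least 1 group compared, fitting the 15 mice of a day together and all 30 for comparisons across days. Exact permutation p-values of single genes were not adjusted for the number of genes. On simulated data of EAE against Ctrl on day 14, the test recovered 92% of 100 genes changed by 1 on the log2 scale and 100% of 100 genes changed by 2, among 8442 genes, with 5 false calls. The changed genes were drawn only from those well above the filter, so this recovery does not cover low genes such as PSAT1. They were also a smaller share of all genes than was called in the real data. The 10 genes and the pathway and marker lists were chosen with earlier results of these data known. Named are the 10 genes, all eIF2α kinases and eIF2α and eIF2B genes, up to 3 called genes in each direction of each other list with the largest change against Ctrl on day 14, and the 2 nearest profiles of each of the 10 genes called. KLB, APOA1, ALB and TTR were named after their values were seen. The alternatives tried were other pseudocounts, filters, scalings, sample sets, no fold threshold, leaving out each mouse, and the replicate number as a block.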

Additional observations from a re-analysis of the deposited data

Results flagged for a closer look

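In 60 groups of 5 mice (10 genes, 6 groups), 4 held a mouse set apart from its group by Dixon's test, which chance gives in about 1 in 20 groups. EAE day 14 replicate 1 had the lowest SESN2 of its group at 2.01 RPKM, where the others were at 3.06 or above. The other flags concerned FGF21 at 5 reads or fewer: 0.189 RPKM in Ctrl day 14 replicate 4, 0.217 in Ctrl day 40 replicate 5 and 0.244 in OVA day 40 replicate 1.

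By the interaction test over 30 mice, the effect of EAE differed between the days for DDIT3, with a change of 0.85 against Ctrl and 1.00 against OVA on the log2 scale, and for PSAT1, with a change of -1.07 against Ctrl and -0.91 against OVA. An offset shared by all libraries of a day cancels in these values, and other differences between the libraries of the 2 days were not tested.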

How the results depend on the processing

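The calls of DDIT3 and PSAT1 in EAE against Ctrl and against OVA on day 14 were kept under every alternative run, leaving out each mouse included (2 genes called in each such fit). Without the filter on low values 4 of the 10 genes were called in EAE against Ctrl on day 14 (FGF21 and PHGDH added), 1 in OVA day 40 against day 14, 2 in Ctrl day 40 against day 14 and 4 in the interaction against Ctrl (TRIB3 and PHGDH added). Over all genes, 3569 of 17474, 833 of 18009, 1365 of 18009 and 3800 of 18009 were called there. This fit also called 3 of the 10 in EAE against OVA on day 14 (FGF21 added), where 6.79% of 17474 genes were called higher. It called 3 in EAE day 40 against day 14 as well (FGF21 added). For that comparison the share over all genes is given only with the filter (21.1%). With the filter at 1 RPKM the 4 counts named first were 3, 1, 2 and 4. Over all genes, 2953 of 11159, 535 of 11206, 1128 of 11278 and 3619 of 11402 were called with it. In EAE against Ctrl on day 40 the count was 1 (CHAC1) and became 0 without the filter, with median-of-ratios scaling, with quantile normalization, with the replicate block, with only the 10 mice compared and with all 30 mice in 1 model, its adjusted p lying between 0.0567 and 0.359 in these. Leaving out 1 mouse gave 0 to 1 there, and the call was kept only without Ctrl day 40 replicate 2 or 4. In the interaction, leaving out 1 mouse gave 2 to 5 genes against Ctrl and 2 to 3 against OVA, with 5 (ATF4, CHAC1 and SESN2 added) without EAE day 14 replicate 1. That fit called 3115 of all 9003 genes tested. ATF4, not called in the report, was called in the interaction against Ctrl in 9 of 20 such fits, and with median-of-ratios scaling (0.70 against Ctrl, 0.59 against OVA) and quantile normalization (0.62 against Ctrl), the last also in EAE day 40 against day 14 (0.69). The cause of these changes was not tested. No called value changed direction. Of values that were not called, ATF4 turned to -0.0204 in OVA day 40 against day 14 with median-of-ratios scaling and to 0.0645 in Ctrl day 40 against day 14 with quantile normalization. Leaving out 1 mouse gave -0.0761 to 0.519 for CHAC1 in EAE against Ctrl on day 14, -0.0425 to 0.0929 for DDIT3 in EAE against Ctrl on day 40 and -0.103 to 0.000507 for ATF4 in Ctrl day 40 against day 14.

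Over both days, same-numbered mice gave correlations of -0.71 to 0.71 (medians per number from -0.07 to 0.09, 4 of 30 mice correlating best with their own number), so the numbers were not taken as pairs, although the mice numbered 1 on day 14 did deviate together (0.50 to 0.69). With the replicate block 2 genes were called in EAE against Ctrl and 2 in EAE against OVA on day 14 (DDIT3 log2 -0.81 and PSAT1 1.06 against Ctrl). Over all genes, 2383 of 8771 and 1819 of 8674 were called there. Besides CHAC1 on day 40 no call changed among ATF4, DDIT3, CHAC1 and PSAT1. The other 6 genes were not fitted with the block.

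The median of all genes in EAE against Ctrl on day 14 was shifted by 0.11 as deposited, 0.08 with median-of-ratios scaling and 0.03 with quantile normalization. Changes of DDIT3 and PSAT1 exceeded it in each.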

Other observations

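On day 14 the mice numbered 1 deviated together from their group means, with correlations over 9049 genes of 0.50 to 0.69 between the Ctrl, OVA and EAE mice, where those of the other numbers on day 14 lay between -0.71 and 0.42. SESN2 was lowest in this mouse in each group of day 14, at 0.979 RPKM in Ctrl, 1.03 in OVA and 2.01 in EAE. What these mice share was not given in the sources used here and was not tested.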
